A study of Homo sapiens with 6 samples.

Results

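The genes described here are the nuclear genes of mitochondrial Complex I, chosen as every gene symbol starting with NDUF, in leukemia cells with and without disruption of COX4I1. The rule found 48 symbols among the 19845 in the count table, and 47 of these were among the 11861 genes with enough counts to be tested. They comprised 37 structural subunits, 8 assembly factors (NDUFAF1 to NDUFAF8), NDUFA4 with its paralog NDUFA4L2, and 1 read-through symbol, NDUFC2-KCTD14, which had 0 counts in all 6 libraries and was not tested. RNA was sequenced from Molm13, a human acute myeloid leukemia line labelled MLL-r leukemia. All cells stably expressed the nuclease Cas9 and were transduced by lentivirus with the guide vector ipUSEPR, which carries a puromycin-resistance gene. The 3 sgCtrl libraries carried control guides and the 3 sgCOX4I1 libraries guides to COX4I1. The study describes no isolation of clones for these cells. The replicates of a group carried independent guide sequences, so each library stands for a different guide. COX4I1 encodes a subunit of Complex IV, and the comparison asks what its loss did to the mRNA of another respiratory complex.

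Complex I, the NADH:ubiquinone oxidoreductase, is the main entry point of electrons into the mitochondrial respiratory chain. Its peripheral arm holds the N module, which oxidizes NADH, and the Q module, which reduces ubiquinone, and its membrane arm pumps protons. A minority of the subunits is encoded by mitochondrial DNA, and the NDUF genes of the nucleus supply the others. Assembly factors build and modify the intermediates and are absent from the finished enzyme. NDUFA4 was named as a Complex I subunit but is found in Complex IV.

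Promoter sequence is shown for 3 members because their promoters share a known feature of respiratory-chain genes, or lack it. Promoters in RefSeq on GRCh38.p14, running from 250 bases before to 50 after the transcription start, were found for 41 of the 47 tested members. CGCATGCG, the core motif of nuclear respiratory factor 1 (NRF1), which reads the same on both strands, was in 5 of these 41 (12.2%, against 2.19% of 27305 promoters), namely those of NDUFA8, NDUFAF5, NDUFB4, NDUFS6 and NDUFS7. In NDUFS6 and NDUFS7 it lay within the 120 bases before the start, printed here 5′ to 3′ on the coding strand with the motif in capitals. The windows are chr5:1801287-1801406 (plus strand) for NDUFS6 and chr19:1383787-1383906 (plus strand) for NDUFS7. That of NDUFAF1, chr15:41402497-41402616 (minus strand), is shown as the member with the highest log2 fold change and held none of the 5 motifs searched. Only the first listed RefSeq start of each gene was searched. The NDUFAF1 and NDUFS7 windows lie inside the gene spans given below, so other annotated starts were not covered.
NDUFS6: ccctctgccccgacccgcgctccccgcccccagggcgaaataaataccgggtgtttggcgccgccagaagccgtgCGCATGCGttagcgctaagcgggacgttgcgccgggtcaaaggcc
NDUFS7: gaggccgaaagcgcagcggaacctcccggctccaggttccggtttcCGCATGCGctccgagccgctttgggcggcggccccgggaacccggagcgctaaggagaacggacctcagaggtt
NDUFAF1: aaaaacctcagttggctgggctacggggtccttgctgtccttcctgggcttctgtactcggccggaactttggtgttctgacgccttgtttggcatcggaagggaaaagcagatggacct
The other motifs were searched on both strands, with any overlap counted for each. AAGATGGC (YY1) was in 6 member promoters (14.6%, against 3.03% of all promoters), CCGGAAG (ETS) in 6 (14.6% against 10.7%), CCAAT (NF-Y) in 11 (26.8% against 35.7%) and TGATGNAA (ATF4 and C/EBP) in 1 (2.44% against 3.67%). These are matches of letters and not measured binding sites. The 27305 promoters include those of genes not tested here, so the shares compare unlike sets.

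The libraries held 17241014 to 30861943 counts, and NDUF genes took 0.277% to 0.318% of the counts in sgCtrl and 0.302% to 0.341% in sgCOX4I1. Levels are given in CPM (counts scaled to a common library size by the TMM method), except where scaling by library size alone is named. By library size alone, 3 counts, the limit that a count of 0 allows, equalled 0.0972 to 0.174 CPM. That limit covers counting error only. COX4I1 itself was at 513, 502 and 463 CPM in the sgCtrl libraries and at 132, 378 and 133 CPM in the sgCOX4I1 libraries, numbered 1 to 3. The groups did not overlap, and sgCOX4I1 #2 kept the most COX4I1 mRNA. Its log2 fold change was −1.21 (SE 0.29, adjusted p = 0.0512 by the quasi-likelihood test of edgeR, adjusted over all genes after Benjamini and Hochberg, as are the adjusted p-values below) and was −1.89 (adjusted p = 3.37e-06) without sgCOX4I1 #2. All 8 myeloid and leukemia markers exceeded 1 CPM in every library. By library size alone, they summed to 2081 to 3030 CPM in sgCtrl and 2802 to 3928 CPM in sgCOX4I1. The sum was carried by LYZ. Without it, the other 7 summed, with TMM scaling, to 941 to 959 CPM in sgCtrl and 772 to 801 CPM in sgCOX4I1. MPO (myeloperoxidase), the 1 marker that passed the test, was at 228, 219 and 235 CPM in sgCtrl and at 117, 105 and 106 CPM in sgCOX4I1 (log2 fold change −1.06, SE 0.074, adjusted p = 1.6e-05). The part of these marker differences in the NDUF values was not tested. Of 14 markers of other cell types, 6 had no counts in any library and 1, the epithelial gene KRT8, exceeded 1 CPM in every library. By library size alone, the 14 summed to 3.52 to 4.84 CPM in sgCtrl and 1.98 to 3.66 CPM in sgCOX4I1. In bulk RNA, fewer cells of a type and less RNA per cell cannot be told apart.

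No NDUF gene passed the test in either direction. At an adjusted p under 0.05, 0 of the 47 members were called higher and 0 lower, against 247 of 11861 genes tested (2.08%), and 0 members were called with a fold change of at least 2, against 0.202% of all genes. DESeq2 and limma-voom also called 0 members. At an unadjusted p under 0.05, 4 members were found (NDUFAF1, NDUFS1, NDUFA8 and NDUFS7), against 17.3% of all genes. The log2 fold changes ran from −0.48 (NDUFB8) to 0.35 (NDUFAF1), 32 above 0 and 15 below, with a median of 0.055 against −0.0023 for all genes. The 95% interval lay within 0.5 log2 units of 0 for 39 of the 47 members and within 1 log2 unit for 44, so that a doubling or halving of the mRNA lay outside the interval for those 44. The 3 libraries of one group lay entirely above or below those of the other for 7 members, against 21.6% of all genes. sgCOX4I1 was the higher group for 6 of the 47 members, namely NDUFAF1, NDUFS1, NDUFA8, NDUFS7, NDUFA10 and NDUFA5, where 11.2% of all genes tested did the same, and the lower group for NDUFB8. With 3 libraries against 3, a two-sided exact permutation test on 1 gene cannot go below p = 0.1.

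**Figure D1:**
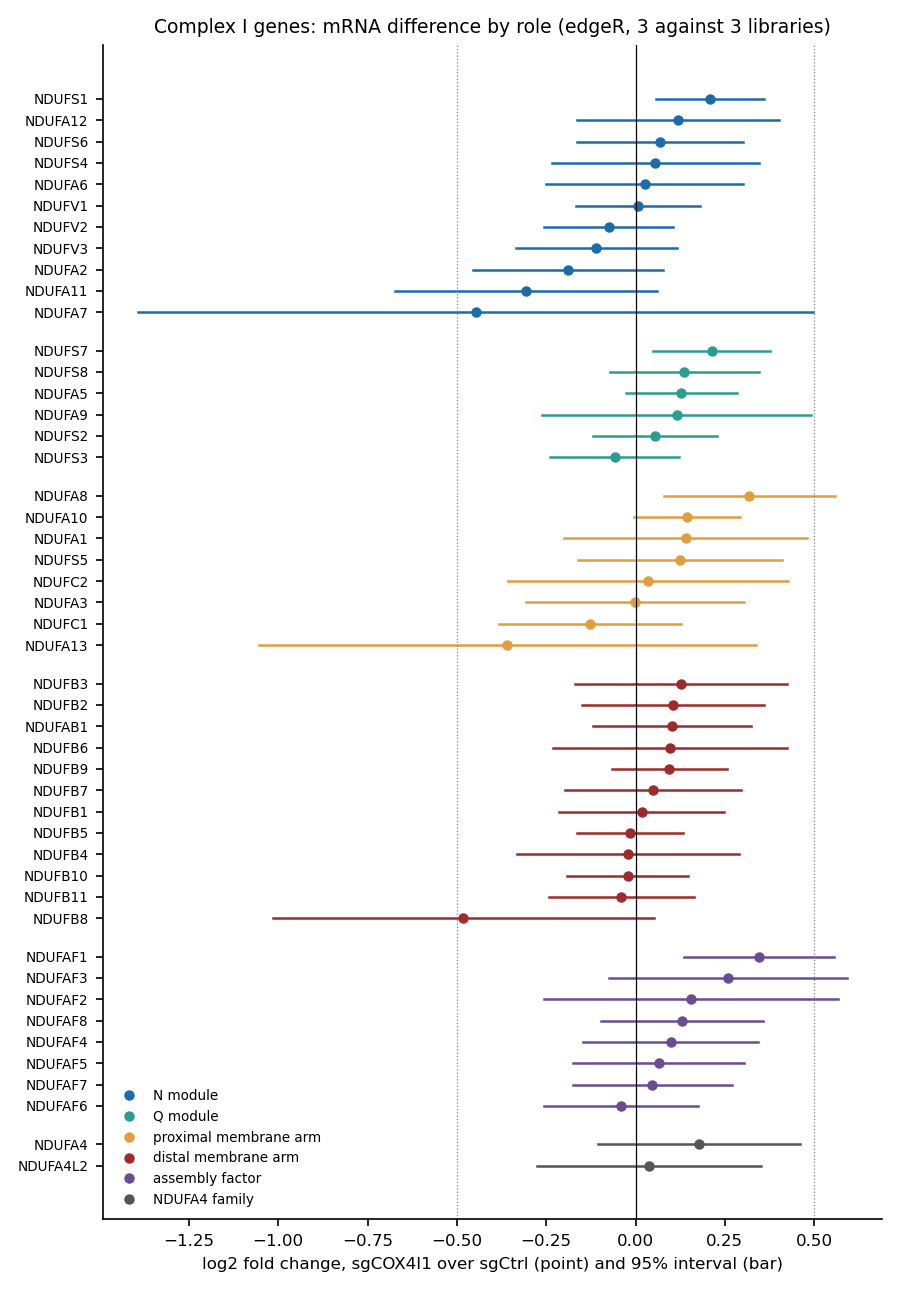
Log2 fold change of sgCOX4I1 over sgCtrl (x axis) for the 47 tested NDUF genes, grouped by role, with the point estimate and the 95% interval of the edgeR fit over 3 libraries a group. Dotted lines mark 0.5 log2 units either side of 0, and the intervals of 39 genes lie between them, with the widest for NDUFA7, NDUFA13 and NDUFB8.

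The count of members above 0 depended on single libraries. It was 20 of 47 when sgCtrl #3 was left out and 23 when sgCOX4I1 #1 was left out, with medians of −0.014 and −0.0083, and 30 to 36 when any of the other 4 libraries was left out. By role, NDUFA11 was counted with the N module and not with the membrane arm. Leaving out sgCtrl #3 left 3 of 11 genes grouped with the N module above 0 (median −0.063), 4 of 6 Q module genes (0.073), 6 of 20 genes grouped with the membrane arm (−0.044) and 6 of 8 assembly factors (0.025). Under the same grouping, leaving out sgCOX4I1 #1 left 3 N module genes above 0 (median −0.076), 5 Q module genes (0.058), 7 membrane-arm genes (−0.021) and 6 assembly factors (0.047). Without sgCOX4I1 #2, the library with the most COX4I1 mRNA left, 0 members were called and the median was 0.063.

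Among the 11 genes grouped with the N module, 6 had log2 fold changes above 0 and 5 below, with a median of 0.0075 (all genes −0.0023), and 9 intervals lay within 0.5 of 0. NDUFV1, the flavoprotein that takes electrons from NADH, was at 268, 312 and 306 CPM in sgCtrl and at 279, 312 and 301 CPM in sgCOX4I1. The groups overlapped over nearly their whole range, and the log2 fold change was 0.0075 (95% interval −0.17 to 0.18). NDUFS1, the large iron-sulfur subunit that passes those electrons on, was at 130.3, 126 and 127 CPM in sgCtrl and at 154, 146 and 142 CPM in sgCOX4I1. Every sgCOX4I1 library of NDUFS1 was higher, by a log2 fold change of 0.21 (SE 0.070, adjusted p = 0.144), which did not pass the test. Its gene lies at chr2:206114817-206159509 on the minus strand. NDUFA7, an accessory subunit, had the lowest log2 fold change of the module, −0.45 (SE 0.44, adjusted p = 0.654), from 6 to 25 counts a library. It was at 0.491, 0.815 and 1.23 CPM in sgCtrl and 0.757, 0.349 and 0.704 CPM in sgCOX4I1, and the groups overlapped. Without sgCtrl #3 its value was −0.063, and NDUFA11 was then the lowest at −0.39. NDUFA11, a membrane subunit that joins late in assembly and was listed with this module, was at 8.01, 9.29 and 7.27 CPM against 7.88, 5.52 and 6.36 CPM (log2 fold change −0.31, SE 0.17, adjusted p = 0.383), also with overlap. NDUFA2, an accessory subunit, was at 54.5, 59.0 and 40.4 CPM against 49.3, 44.9 and 40.8 CPM (log2 fold change −0.19, SE 0.12, adjusted p = 0.465).

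In the Q module, which holds the ubiquinone site, 5 of 6 genes had log2 fold changes above 0, with a median of 0.12 and all 6 intervals within 0.5 of 0. NDUFS7, which carries the last iron-sulfur cluster before ubiquinone, was at 126, 138 and 119 CPM in sgCtrl and at 149, 153 and 143 CPM in sgCOX4I1. The groups did not overlap, with a log2 fold change of 0.21 (SE 0.076, adjusted p = 0.169). NDUFS7 lies at chr19:1383527-1395589 on the plus strand, its promoter is the second printed above, and 51.3% of its transcript is also annotated in genes of the opposite strand. NDUFA5, an accessory subunit, was at 67.9, 68.7 and 66.4 CPM in sgCtrl and 76.9, 73.1 and 71.9 CPM in sgCOX4I1. The libraries of NDUFA5 separated by group as well, at a smaller log2 fold change of 0.13 (SE 0.072, adjusted p = 0.388). NDUFS3, a core subunit, had the lowest value of the module, −0.058 (95% interval −0.24 to 0.12, adjusted p = 0.772). Over the 7 nuclear core subunits, those conserved from bacteria and sufficient for catalysis together with the mitochondrially encoded ones, 5 were above 0 and 2 below, the median was 0.054, and all 7 intervals lay within 0.5 of 0.

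Among the 20 accessory subunits grouped with the membrane arm, which leave out NDUFA11, 12 had log2 fold changes above 0, or 6 without sgCtrl #3. The proximal part held 8 of these genes, with 5 above 0 and a median of 0.079 (3 above 0 and −0.025 without sgCtrl #3, 3 and −0.014 without sgCOX4I1 #1). NDUFA8, an accessory subunit of its intermembrane-space face, was at 26.6, 25.03 and 21.3 CPM in sgCtrl and at 33.8, 29.7 and 27.5 CPM in sgCOX4I1. All 3 sgCOX4I1 libraries were higher, and the log2 fold change of 0.32 (SE 0.11, adjusted p = 0.159) was the highest of the structural subunits. NDUFA10, an accessory subunit on the matrix side, was at 121, 128 and 127 CPM in sgCtrl and at 138, 139 and 139 CPM in sgCOX4I1. Its groups were separate and narrow, with a log2 fold change of 0.14 (SE 0.069, adjusted p = 0.300). NDUFA13, also known as GRIM-19, had the lowest value of the proximal part, −0.36 (SE 0.32, adjusted p = 0.617), at 1.85, 2.44 and 2.31 CPM against 0.980, 1.63 and 2.43 CPM. It ranged from −0.78 without sgCOX4I1 #3 to −0.082 without sgCOX4I1 #1, where NDUFC1 was the lowest of the proximal part at −0.21. The distal part held 12 genes, with 7 above 0 and a median of 0.033 (3 above 0 and −0.054 without sgCtrl #3, 4 and −0.028 without sgCOX4I1 #1). NDUFB3 had its highest log2 fold change, 0.13 (SE 0.14, adjusted p = 0.691), which was 0.014 without sgCOX4I1 #1 and 0.28 without sgCOX4I1 #3. NDUFB8, often used as a protein readout of assembled Complex I, had the lowest of all members, −0.48 (95% interval −1.02 to 0.052, adjusted p = 0.341). It was at 2.13, 2.61 and 2.85 CPM in sgCtrl and at 1.92, 1.80 and 1.73 CPM in sgCOX4I1, which did not overlap but rested on 31 to 58 counts a library.

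Of the 8 assembly factors, 7 had log2 fold changes above 0, with a median of 0.11 and 5 intervals within 0.5 of 0. NDUFAF1, a member of the assembly complex of the membrane arm, was at 20.1, 19.5 and 20.3 CPM in sgCtrl and at 24.1, 27.2 and 25.1 CPM in sgCOX4I1. The groups did not overlap, and the log2 fold change of 0.35 (SE 0.097, 95% interval 0.14 to 0.56) had the smallest adjusted p of all members, 0.0856. NDUFAF1 lies at chr15:41387218-41409403 on the minus strand. NDUFAF3, which assembles the Q module with NDUFAF4, was at 48.4, 45.6 and 29.2 CPM against 55.4, 49.8 and 42.1 CPM. The low sgCtrl #3 library spread that group, and the log2 fold change of 0.26 (SE 0.15, adjusted p = 0.419) went to 0.063 without it. NDUFAF6, an early factor, had the lowest value, −0.040 (95% interval −0.26 to 0.18, adjusted p = 0.876), which turned to 0.0077 without sgCtrl #2 and to 0.014 without sgCOX4I1 #3.

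NDUFA4, the former Complex I subunit found in Complex IV, was at 72.6, 67.2 and 50.1 CPM in sgCtrl and at 82.7, 71.6 and 60.8 CPM in sgCOX4I1. The groups overlapped (log2 fold change 0.18, SE 0.13, adjusted p = 0.525), and the value was 0.035 without sgCtrl #3, 0.063 without sgCOX4I1 #1 and 0.29 without sgCtrl #1. Its hypoxia-inducible paralog NDUFA4L2 was at 7.68, 7.11 and 6.73 CPM against 7.22, 7.67 and 7.23 CPM. This was a log2 fold change of 0.038 (95% interval −0.28 to 0.35, adjusted p = 0.928), which turned to −0.0057 without sgCtrl #3.

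Summed over the 37 structural subunits, mRNA stood at 2890, 2854 and 2523 CPM in sgCtrl and at 3036, 2880 and 2673 CPM in sgCOX4I1. The groups overlapped, and the sgCOX4I1 mean of 2863 ± 182 CPM was 104% of the sgCtrl mean of 2756 ± 203 CPM (SD, n = 3), less than 1 SD away. With NDUFA11 counted in the N module, the sums were 102% for the N module, 106% for the Q module, 108% for the proximal and 103% for the distal membrane arm. The 8 assembly factors summed to 234 ± 27.0 CPM in sgCtrl and 257 ± 20.2 CPM in sgCOX4I1 (SD, n = 3), also with overlapping libraries. In every one of these sets the #3 library was the lowest of its group.

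**Figure D2:**
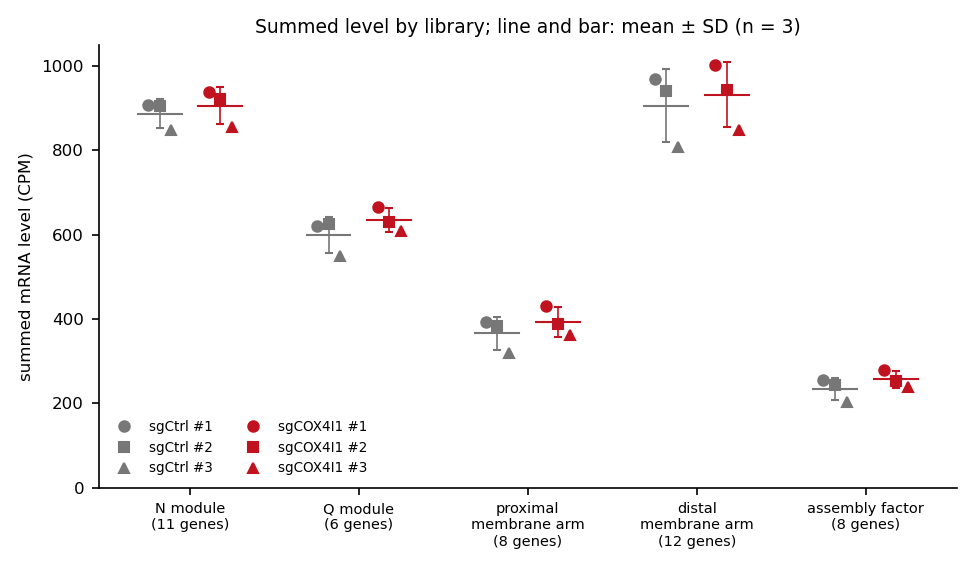
Summed CPM (y axis) of the genes of each module and of the assembly factors in the 6 libraries, with gray for sgCtrl, red for sgCOX4I1, a symbol for each library number and lines and bars for the mean ± SD (n = 3). The colors overlap in each set, and the triangle (library #3) is the lowest of its group throughout.

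The NDUF genes varied together between libraries of the same group. Library #3 had the lowest level of its group for 36 of 47 members in sgCtrl (all genes 35.8%) and for 33 of 47 in sgCOX4I1 (all genes 33.1%), and in both groups for 28 members, or 59.6% (all genes 17.6%). Library #1 was the highest for 28 members in sgCtrl and 35 in sgCOX4I1, for which the share of all genes was not counted. The median deviation of the structural subunits from their mean log2 level was 0.090, 0.029 and −0.20 in the sgCtrl libraries and 0.13, 0.025 and −0.094 in the sgCOX4I1 libraries. In both groups the gap between #1 and #3 exceeded the median log2 fold change of these genes between the groups, 0.048. The median within-group SD of a member was 0.167 on the log2 scale, against 0.128 for all genes. With each library's trend on transcript length removed, it was 0.111 against 0.123, and #3 was the lowest in both groups for 21 members (44.7%, all genes 16.7%). With the trend on GC content removed, it was 0.173 against 0.123, and #3 was the lowest in both for 32 members (68.1%, all genes 19.0%). The labels name no batch, and the source of the shared shift was not tested.

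**Figure D3:**
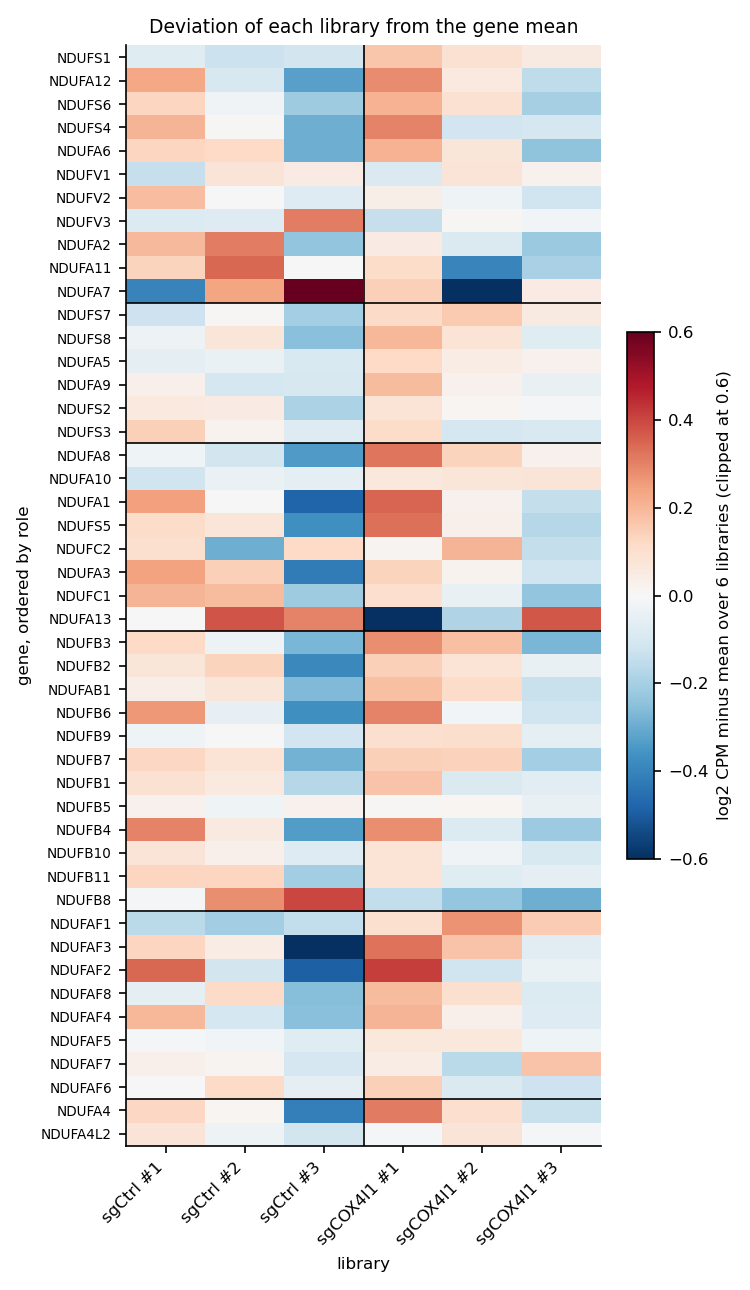
Log2 CPM of each NDUF gene (rows, ordered by role) in each library (columns) minus the gene's mean over the 6 libraries, with red for higher and blue for lower and the color clipped at 0.6. The sgCtrl #3 column is blue for most genes and the sgCOX4I1 #1 column red. Genes that run differently include NDUFA13, NDUFB8 and NDUFV3, red in sgCtrl #3 and blue in sgCOX4I1 #1, and NDUFA7, red in both.

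Per kilobase of transcript, member levels in sgCtrl spanned a wide range. NDUFB9 was the highest at 324 CPM per kb, followed by NDUFS6 at 208, NDUFB7 at 196, NDUFV1 at 189 and NDUFS5 at 183. The lowest were NDUFC2 at 2.54, NDUFAF5 at 2.496, NDUFA7 at 1.46 and NDUFA9 at 0.552. This order depends on the annotated transcript length, 8356 bases for NDUFA9 and 5449 for NDUFAF5. Not divided by length, NDUFA9 averaged 4.61 CPM and NDUFAF5 13.6 CPM in sgCtrl, above NDUFA7 at 0.844 CPM. The subunits are present once each in the enzyme, with the exception of NDUFAB1, the mitochondrial acyl carrier protein, which sits in both arms. In GENCODE 44, 8 members shared coding bases with another gene on the same strand. The share was 100% for NDUFA7 and NDUFV2, 98.4% for NDUFA13, 86.8% for NDUFC2, 85.1% for NDUFA9, 83.9% for NDUFB8, 74.0% for NDUFA11 and 68.3% for NDUFB5, and 0 for the other 39. In sgCtrl, 6 of these 8 averaged under 10 CPM, against 1 of the other 39 (NDUFA4L2), and the median level was 3.98 against 64.8 CPM per kb. HTSeq, the counter named in the file header, leaves out by default the reads that lie on more than 1 gene, but the annotation and settings used are not given, and the part of this overlap in the levels was not tested. The 4 lowest log2 fold changes, those of NDUFB8, NDUFA7, NDUFA13 and NDUFA11, were all in the overlapped set, whose median was −0.19 (2 above 0 and 6 below), against 0.095 for the other 39 (30 above and 9 below). The 7 members under 10 CPM had SEs of 0.15 to 0.44. The 40 members at 10 CPM or more had a median of 0.082, with 29 above 0, 11 below, 36 intervals within 0.5 of 0 and all 40 within 1. A pseudogene is annotated for 21 of the 47 members and overlap with a gene of the opposite strand for 12, and whether the counting used strand is not given.

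**Figure D4:**
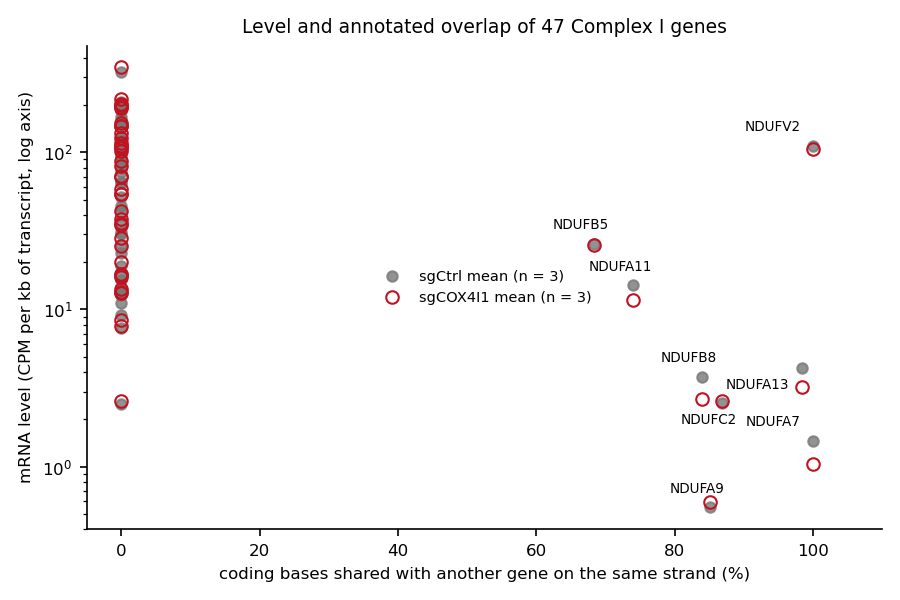
Mean level in CPM per kb of transcript (y axis, log) of the 47 tested NDUF genes against the share of their coding bases that another gene on the same strand also covers (x axis), with gray dots for sgCtrl and red circles for sgCOX4I1 (means of 3 libraries). Of the 8 genes with shared bases, NDUFV2 and NDUFB5 lie among the levels of the other 39, and NDUFA9 is the lowest at 0.552 in sgCtrl.

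The Complex I subunits encoded by mitochondrial DNA had 0 of 7 called by edgeR and by limma-voom and 1 by DESeq2 (MT-ND3). The shares of all genes called were 2.08%, 2.12% and 3.93%. In edgeR, 1 of the 7 had an unadjusted p under 0.05, against 17.3% of all genes, 5 were above 0 and the median was 0.17. MT-ND3, a membrane subunit, was at 387, 356 and 378 CPM in sgCtrl and at 544, 405 and 479 CPM in sgCOX4I1. The groups did not overlap (log2 fold change 0.35, SE 0.098, adjusted p = 0.0837). Of the 7 intervals, 1 lay within 0.5 of 0. MT-ND6, the subunit gene on the other strand of the mitochondrial genome, had a log2 fold change of −0.24 (SE 0.36, adjusted p = 0.787). Of 12 further Complex I assembly genes, 0 were called by any of the 3 tools. In edgeR, 2 had an unadjusted p under 0.05 (ECSIT and TMEM70), against 17.3% of all genes, 10 were above 0 and the median was 0.043. ECSIT, which works with NDUFAF1 in the membrane-arm assembly complex, was at 92.5, 88.1 and 90.2 CPM in sgCtrl and at 72.6, 81.7 and 76.8 CPM in sgCOX4I1. Every sgCOX4I1 library was lower, at a log2 fold change of −0.23 (SE 0.075, adjusted p = 0.131), the opposite sign to NDUFAF1. ACAD9, a further partner of that complex, was at 0.073 (SE 0.071, adjusted p = 0.649), and TMEM126B, also of that complex, at 0.0066 (SE 0.13, adjusted p = 0.962).

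In the other respiratory complexes, edgeR, DESeq2 and limma-voom each called 0 genes, against 2.08%, 3.93% and 2.12% of all genes. In edgeR, 1 (UQCRC2 of Complex III) had an unadjusted p under 0.05, against 17.3% of all genes. The median log2 fold change was 0.14 over the 4 subunits of Complex II (4 above 0), 0.039 over 9 nuclear subunits of Complex III (7 above 0), 0.053 over 9 of Complex IV without COX4I1 (8 above 0) and 0.020 over 15 of Complex V (10 above 0), beside 0.048 for the structural subunits of Complex I. Whether Complex I differed from these complexes was not tested. Of the 47 NDUF genes, 26 lay between −0.12 and 0.12, the range of the middle 50% of all genes.

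**Figure D5:**
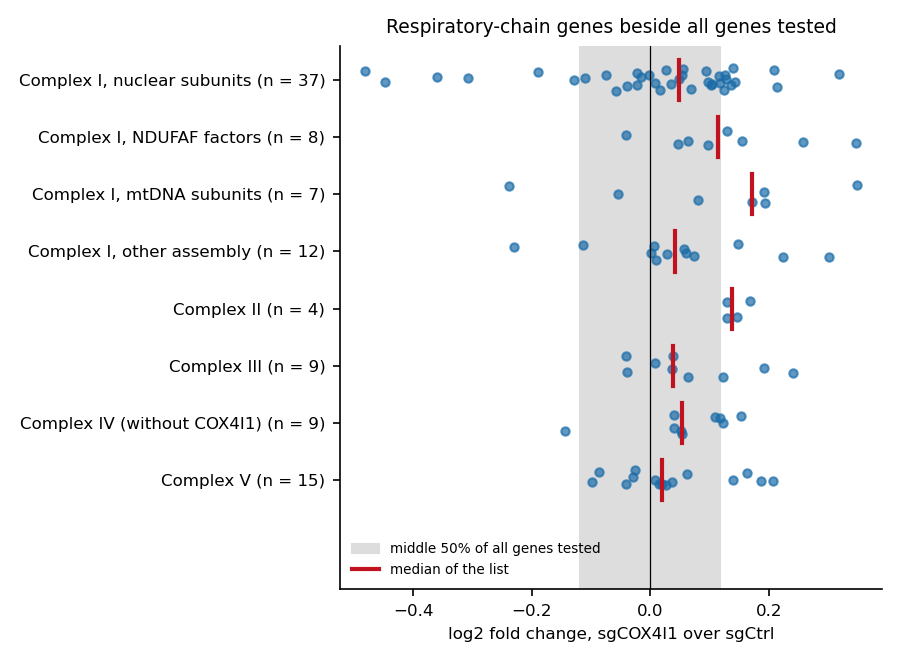
Log2 fold change of sgCOX4I1 over sgCtrl (x axis) for each gene of the respiratory-chain lists (rows, 1 point a gene, red bar for the median), with the middle 50% of all genes tested in gray. The list medians lie between 0.020 and 0.17, and the 4 points farthest left are NDUFB8, NDUFA7, NDUFA13 and NDUFA11.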

How the data were processed

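RNA-seq counts per gene symbol, as deposited by the authors in 1 table of 6 libraries, were used without change. The file header names STAR, duplicate marking and HTSeq, and the submitters' processing notes name bcl2fastq 2.20.0.422, STAR 2.6.0a, edgeR and GRCh38. The study's methods describe another aligner and counter for RNA-seq, so the steps behind these counts rest on the header and notes. Columns were matched to samples by group letter and replicate number. The counts were fitted in R 4.3.3 with edgeR 4.0.16 (TMM, filterByExpr, quasi-likelihood test, Benjamini-Hochberg over 11861 genes, called at adjusted p under 0.05). Alternatives used DESeq2 1.42.0, limma 3.58.1, other filters and scaling, length or GC offsets, a replicate block and leaving out each library. The script was tested on simulated data. Depth was 17241014 to 30861943 counts. Gene models, lengths and overlaps came from the canonical transcripts of GENCODE 44, which matched 19209 of 19845 symbols. The study gives the replicates of a group as independent guide sequences, so p-values measure the spread between guides, each sequenced once. Libraries of a group differed by a chi-square per degree of freedom of 11.0 to 27.6 and none was a copy. Members and lists were chosen with earlier results of these data known. Named in the text are COX4I1, any called member, the 10 members with the smallest p, the highest and lowest log2 fold change of each role, NDUFA4, NDUFA4L2 and untested members. NDUFV1, NDUFV3, NDUFS8, MT-ND3, MT-ND6, ECSIT, ACAD9, TMEM126B, TMEM70, UQCRC2, MPO, LYZ, NDUFC1 and the members named for level, overlap or promoter motifs were added after their values were seen.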

Additional observations from a re-analysis of the deposited data

How the results depend on the processing

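The call of 0 members held under every fit without a block, including both other tools and each library left out. The replicate block called 5 of 47 members (NDUFA8, NDUFAF1, NDUFAF3, NDUFS1 and NDUFS7), against 11.9% of all genes (1408 of 11861). With length correction the block called 4 of 47, without NDUFS1, against 11.5% (1360 of 11783). With GC correction it called 5 of 47, with NDUFS8 in place of NDUFS1, against 11.1% (1306 of 11783). All of these member calls were higher in sgCOX4I1. The main fit called 247 genes (2.08%). Same-numbered libraries correlated at 0.38, −0.024 and 0.29 in their deviations from the group means. The correlation was −0.32 for sgCtrl #1 with sgCOX4I1 #3 and −0.38 for sgCtrl #3 with sgCOX4I1 #1. sgCtrl #2 correlated best with sgCOX4I1 #3, at 0.064. A guide number has no counterpart in the other group, so the numbers were not taken to pair the libraries. Whether libraries of the same number shared handling is not given and was not tested. Calls over all genes were 466 with DESeq2, 537 without a filter, 371 with length correction, 561 without sgCtrl #1, 24 without sgCtrl #2, 51 without sgCOX4I1 #2 and 89 without sgCOX4I1 #3. COX4I1 passed the threshold at −1.40 with limma-voom, −1.20 without a filter, −1.39 with the block, −1.20 with length correction, −1.38 with block and length and −1.39 with block and GC, and ranged from −1.89 to −0.95 with 1 library left out, passing without sgCtrl #1 (adjusted p = 0.0193), sgCtrl #3 (0.0372) or sgCOX4I1 #2 (3.37e-06), and the cause was not tested. Leaving out 1 library gave 8 to 15 non-overlapping members, and fewer libraries separate more easily. The share of all genes was not counted in those settings, so these counts are not a result about the members. Member medians then ran from −0.014 to 0.14 and subunit sums from 99.8% to 107% of sgCtrl. NDUFAF6 ranged from −0.13 to 0.014 (0.0077 without sgCtrl #2) and NDUFA4L2 from −0.0057 to 0.088. Of the other values of the members named by rule, 255 kept direction and side of the threshold and 13 passed it under a block. The median over members at 10 CPM or more, 0.082, was chosen after seeing the data. The intervals of 3 of the 7 members under 10 CPM reached a 2-fold difference at this depth.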
